A study of Homo sapiens with 12 samples.

Results

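The actin cytoskeleton and focal adhesion genes described here are 42 genes named by symbol, from the actins themselves to the adaptors that tie actin filaments to the cell's adhesions to its surroundings. All 42 were found by Ensembl gene ID among the 60649 genes of both deposited tables. The RNA was that of Cal33 xenograft tumours, Cal33 being a human line from a squamous carcinoma of the head and neck. The study addresses blocking of the YAP/TAZ and TEAD partnership in that cancer. The smTEADi tumours were treated with SW-682, and the Vehicle tumours are the labelled control of that experiment. The pTEADi tumours carry the label DOX+, for doxycycline, and the Control tumours the label DOX-, so an effect of pTEADi and an effect of doxycycline itself cannot be told apart. Each group had 3 libraries, 12 in all, and every tumour came from the same cell line. The dose, the time of treatment, the host strain and its age, and any separation of host reads are not given in the sources used here. Nor is it given whether each library stands for its own animal, so the p-values measure only the spread between the libraries, which may be technical.

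Actin filaments grow from the supply of actin monomers, are bundled and cross-linked by proteins such as alpha-actinin and filamin, and are pulled by non-muscle myosin II. Bundles that end at focal adhesions, where integrins, talin, paxillin, vinculin and zyxin sit, carry tension between the cell and its matrix, and kinases and the formins help set how much of this array is built. In epithelial and carcinoma cells this tension is known to favour YAP and TAZ in the nucleus, where they act through the DNA-binding TEAD proteins, and a number of cytoskeletal genes are in turn targets of TEAD or of SRF, a factor that responds to free actin through MRTF.

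The promoter windows of 4 genes that were lower under both inhibitors are shown because they hold the core motif of TEAD, GGAATG, or the CArG box to which SRF binds. Windows are from RefSeq (GRCh38.p14), run 5′ to 3′ in the direction of transcription from 250 bases before to 50 bases after a RefSeq transcript start, and have the motif in capitals. A gene can have several windows: ACTN1 had 4, PXN and DIAPH3 2 each and FLNA 1, and only those with a motif are printed. The FLNA window is at the outermost start of the gene in Gencode 44, whereas the other 3 belong to alternative starts inside the gene, 1874 bases in for ACTN1, 15608 for PXN and 150739 for DIAPH3. Gene totals do not show whether these starts were used. Both motifs were searched on both strands, and no printed copy of one overlaps the other.
ACTN1, chr14:68977517-68977816, - strand: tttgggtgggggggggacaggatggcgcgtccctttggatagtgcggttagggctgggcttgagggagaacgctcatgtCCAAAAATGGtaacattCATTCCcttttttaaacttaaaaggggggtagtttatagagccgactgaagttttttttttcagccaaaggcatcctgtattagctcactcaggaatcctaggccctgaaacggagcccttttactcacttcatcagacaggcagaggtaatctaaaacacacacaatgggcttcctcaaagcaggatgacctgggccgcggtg
FLNA, chrX:154374585-154374884, - strand: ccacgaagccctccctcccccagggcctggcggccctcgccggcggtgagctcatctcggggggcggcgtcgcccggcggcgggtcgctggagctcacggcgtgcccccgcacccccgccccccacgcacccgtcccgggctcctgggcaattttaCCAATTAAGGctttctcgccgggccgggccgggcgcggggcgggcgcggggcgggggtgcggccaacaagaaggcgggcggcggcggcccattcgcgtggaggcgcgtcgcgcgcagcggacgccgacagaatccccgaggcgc
PXN, chr12:120250114-120250413, - strand: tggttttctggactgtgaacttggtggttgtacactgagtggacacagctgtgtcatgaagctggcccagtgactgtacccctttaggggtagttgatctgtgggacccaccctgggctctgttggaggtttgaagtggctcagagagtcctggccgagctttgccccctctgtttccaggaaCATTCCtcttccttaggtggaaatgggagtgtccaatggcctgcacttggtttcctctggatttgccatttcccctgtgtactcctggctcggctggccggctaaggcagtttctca
DIAPH3, chr13:60013140-60013439, - strand: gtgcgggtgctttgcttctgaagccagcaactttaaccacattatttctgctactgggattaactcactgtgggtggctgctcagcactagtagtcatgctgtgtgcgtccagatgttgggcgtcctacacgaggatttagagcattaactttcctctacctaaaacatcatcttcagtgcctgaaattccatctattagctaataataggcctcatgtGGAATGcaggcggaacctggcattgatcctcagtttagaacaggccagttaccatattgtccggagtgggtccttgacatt
In the window of ACTN1, the CArG box began 171 bases and the reverse complement of GGAATG 154 bases before that alternative start. The other motifs began 94, 67 and 31 bases before the start of the printed windows of FLNA, PXN and DIAPH3. RefSeq windows were found for 36 of the 42 genes, and ACTB, CAVIN1, FERMT1, MYL9, PTK2 and TAGLN had none in the table. GGAATG was in at least 1 window of 10 of these genes (27.8%), against 16.7% of all 27305 genes with a window. Counted by window, it was in 16.4% of 61 windows, against 14% of all 35116 windows. The CArG box was in a window of 6 genes (ACTG1, ACTN1, CNN2, FLNA, ROCK2 and TPM4), or 16.7%, against 1.6% of all genes, and in 9.84% of the 61 windows, against 1.29% of all. ANLN, ARHGAP29, CAV1 and RHOC, which were also lower under both inhibitors, had neither run of letters in these windows. A match describes letters and is not evidence of binding.

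Libraries held 13576494 to 15433679 expected counts. Levels below are CPM, counts scaled by library size with TMM, a scaling that sets the bulk of genes equal between libraries. Fold changes are log2 values ± SE from edgeR's quasi-likelihood test, smTEADi over Vehicle or pTEADi over Control, and a gene is said to have fallen or risen where its adjusted p was under 0.05 over all genes tested. Within groups, library pairs differed by 6.97 to 31.1 times the variance of counting noise. In the SW-682 experiment, smTEADi 1 lay away from the other smTEADi libraries (25.7 and 31.1, against 11.3 between those) and Vehicle 2 from the other Vehicle libraries (24.5 and 23.6, against 8.3). In the doxycycline experiment, Control 2 and Control 3 gave 26.1, Control 1 and Control 2 13.8, and Control 1 and Control 3 11.3. The pTEADi pairs gave 6.97 to 7.88. All 8 of 8 squamous carcinoma markers, keratins among them, were measured, and their sum overlapped between groups in both experiments. It was 41472 to 58741 CPM in smTEADi tumours against 54488 to 74292 CPM in Vehicle tumours, and 64903 to 77580.5 CPM in pTEADi tumours against 65955 to 79012 CPM in Control tumours. Of the 8, EPCAM, an adhesion gene of epithelia, fell in both (-1.10 ± 0.20, adjusted p = 0.0365 under SW-682 and -1.15 ± 0.15, adjusted p = 0.000248 under pTEADi), and the keratin gene KRT17 fell under pTEADi (-1.31 ± 0.17, adjusted p = 0.000248) and had -0.96 ± 0.25, adjusted p = 0.0529 under SW-682. The SW-682 call of EPCAM was lost without smTEADi 3 (adjusted p = 0.0522), Vehicle 1 (adjusted p = 0.134) or Vehicle 3 (adjusted p = 0.184). Since many of the 42 genes are also strong in muscle and blood vessel walls, the defining genes of those cells were read too. The tumours are xenografts and reads were aligned to the human genome, with the handling of host reads not given. A value of 0 for a marker below therefore does not show that host cells of that kind were absent or unchanged. DES, a filament gene of muscle, and CKM were at 0 in every library, ACTA2, the smooth muscle actin, was at 0.979 to 2.16 CPM, and MYH11, the smooth muscle myosin, at 1.71 to 3.83 CPM. The summed smooth muscle and pericyte list, with 4 of 8 genes reaching 1 CPM, was almost wholly NOTCH3, which squamous cells also express (605 to 935 CPM). Of the 6 endothelial markers only VWF, a clotting factor carrier, reached 1 CPM, and KDR and EMCN were at 0 in every library. Their sum was 36.2 to 63.7 CPM in smTEADi tumours against 15.8 to 32.9 CPM in Vehicle tumours, and 30.8 to 42.5 CPM in pTEADi tumours against 12.9 to 21.3 CPM in Control tumours, higher with no overlap in both. VWF rose under pTEADi (1.19 ± 0.19, adjusted p = 0.000862) and had 1.14 ± 0.30, adjusted p = 0.0561 under SW-682. The 7 fibroblast markers, COL3A1 at 0 in every library, summed to 85.3 to 90.8 CPM in smTEADi, 76.8 to 96.9 in Vehicle, 99.9 to 138 in pTEADi and 101.03 to 119 in Control tumours. That sum was almost wholly COL1A1, at 69.3 to 132.8 CPM over all libraries. The 6 leukocyte markers summed to 13.9 to 44.1 CPM in smTEADi, 19.2 to 28.5 in Vehicle, 19.8 to 24.8 in pTEADi and 24 to 44.8 in Control tumours. Of these lists, the fibroblast gene FAP (-0.92 ± 0.25, adjusted p = 0.0173) and the macrophage gene CSF1R (-1.39 ± 0.41, adjusted p = 0.0254) fell under pTEADi. The FAP call was lost without pTEADi 1 (adjusted p = 0.0575), pTEADi 2 (adjusted p = 0.0824) or Control 1 (adjusted p = 0.0806), and the CSF1R call without pTEADi 2 (adjusted p = 0.1), pTEADi 3 (adjusted p = 0.11) or Control 2 (adjusted p = 0.107). The 4 adipocyte markers, with ADIPOQ and LPL at 0 in every library, summed to 33.4 to 63.6 CPM in smTEADi tumours against 21.6 to 27.8 CPM in Vehicle tumours, with no overlap, and to 11.3 to 16.5 CPM in pTEADi tumours against 11.8 to 19.9 CPM in Control tumours. This adipocyte sum was almost wholly FABP4 (10.1 to 62.8 CPM over all libraries), which did not pass under SW-682 (0.92 ± 0.23, adjusted p = 0.0518). The skeletal muscle markers summed to at most 4.2 CPM in any library. The part of cell make-up in the results below was not tested. In bulk tumour RNA, fewer cells of a kind and less RNA per cell cannot be told apart.

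Under SW-682, 9 of 41 tested genes fell and 0 rose. Of all 14829 genes tested, 3.48% fell and 2.02% rose, 5.5% in all. The 9 were ANLN of the cytokinetic ring, the formin DIAPH3, the GTPase-activating protein gene ARHGAP29, RHOC, CAV1, the cross-linkers ACTN1 and FLNA, and the adhesion adaptors PXN and ZYX. Beside the 0 that rose, an unadjusted edgeR p under 0.05 gave 23 lower and 0 higher, DESeq2 called 19 lower and 0 higher, and limma-voom 10 lower and 0 higher. Fold changes were negative for 34 genes, with a median of -0.34, beside 0.01 over all genes tested. The 3 smTEADi libraries lay below all 3 Vehicle libraries for 25 of the 41 genes and above them for 0, against 17.7% and 15.3% of all genes. The number of calls changed with the library left out: it was 5 without smTEADi 1, 7 without smTEADi 2 and 12 without Vehicle 2. Of all genes tested, 245, 269 and 821 fell in these runs, in the same order, beside 516 with all libraries. The number of calls among these genes was 0 without any 1 of smTEADi 3, Vehicle 1 and Vehicle 3. In each of those runs 0 of all genes tested fell and 0 rose, so the loss was not particular to these genes. The SW-682 adjusted p-values printed for single genes in those runs are part of this wider loss, whose cause was not tested. Without both smTEADi 1 and Vehicle 2, a choice made after seeing the data, 15 fell, beside 1057 of all genes tested. The median fold change stayed between -0.41 and -0.29 over the 6 ways of leaving out 1 library.

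Under pTEADi, 18 of 41 tested genes fell and 1, the tropomyosin TPM1, rose. Of all 14705 genes tested, 13.6% fell and 12.7% rose, 26.3% in all. Of the genes named above, ZYX alone was not among the 18. The other 10 were ACTB, CORO1C, LIMA1, MYL9, TPM2, TPM3, PDLIM7, DIAPH1, CAVIN1 and MSN. Fold changes were negative for 37 genes, with a median of -0.27, beside -0.00 over all genes tested. The 3 pTEADi libraries lay below all 3 Control libraries for 27 genes and above them for 3, against 21.8% and 20.1% of all genes. Leaving out 1 library at a time gave 13 to 21 genes that fell, and TPM1 as the 1 that rose in each of the 6. Summed over the 42 genes, the level was 1.27% to 1.44% of scaled counts in smTEADi tumours, against 1.68% to 1.85% in Vehicle tumours. The sum was 1.64% to 1.82% in pTEADi tumours, against 2.04% to 2.25% in Control tumours. FERMT2, the kindlin of mesenchymal cells, was not tested in either comparison: it had 0.511, 0.59 and 0.142 CPM in smTEADi tumours and 1.85, 0.562 and 0.412 CPM in Vehicle tumours. It had 0.527, 0.361 and 0 CPM in pTEADi tumours and 1.05, 0.861 and 0.56 CPM in Control tumours.

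**Figure D1:**
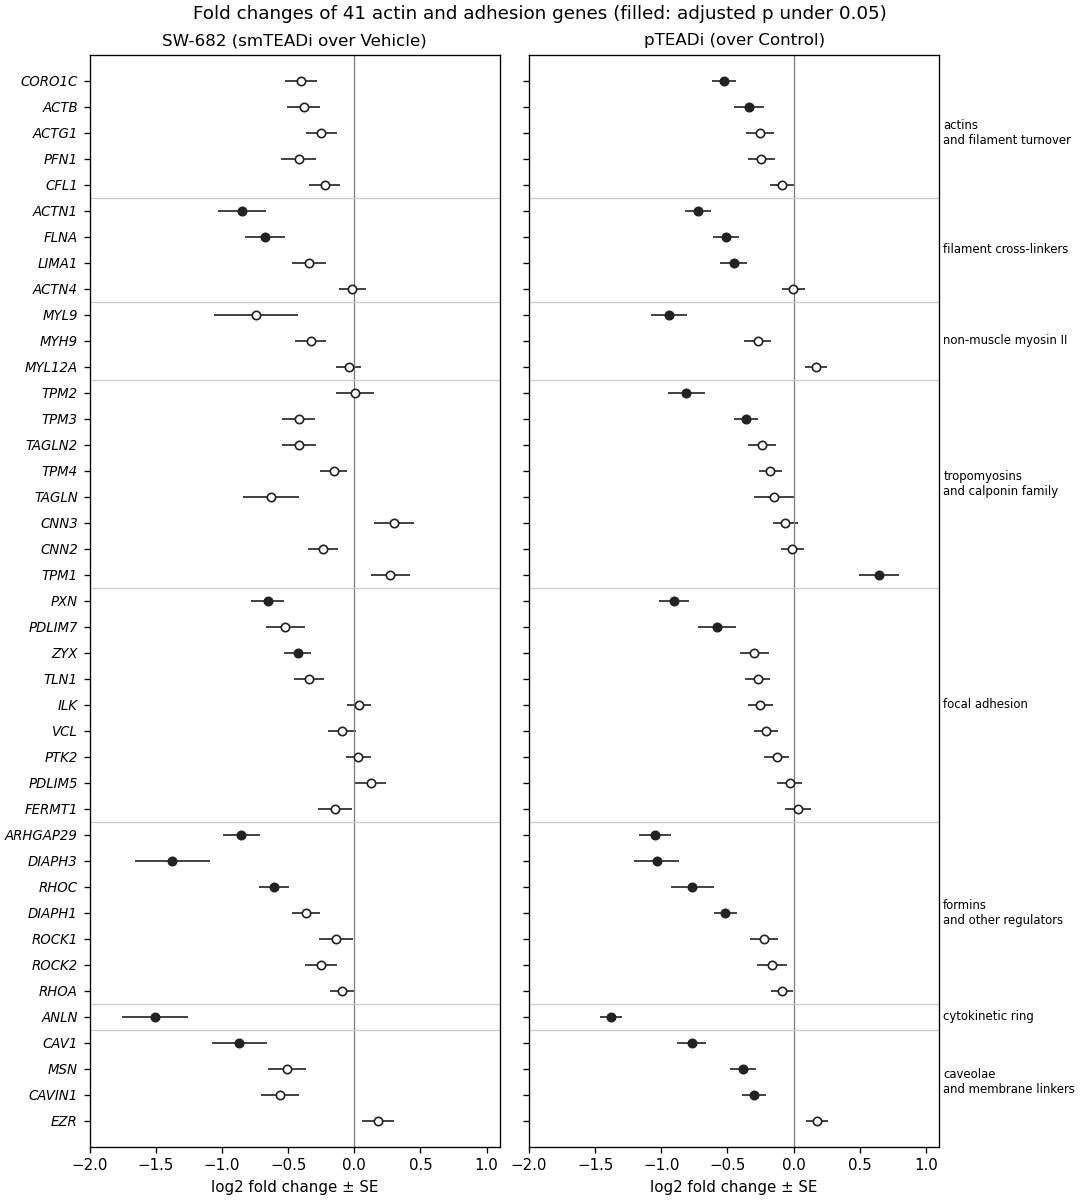
Log2 fold changes of the 41 tested genes (points, with bars of ± 1 SE) for smTEADi over Vehicle on the left and pTEADi over Control on the right, grouped by role. Filled points passed an adjusted p of 0.05: 9 on the left, all negative, and 19 on the right, of which TPM1 alone is positive.

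ANLN and DIAPH3 had the lowest fold changes of the 41 genes under SW-682. ANLN encodes anillin, the scaffold that holds actin, myosin and septins in the ring that pinches dividing cells apart. It had 52.8, 104 and 85.4 CPM in smTEADi tumours, against 246, 169 and 276 CPM in Vehicle tumours, and its log2 fold change was -1.50 ± 0.25, adjusted p = 0.0365. Under pTEADi, ANLN had 89.2, 83.8 and 95.6 CPM in pTEADi tumours, against 239, 232 and 231 CPM in Control tumours, and its log2 fold change was -1.38 ± 0.08, adjusted p = 3.47e-06. The treated groups lay below their controls with no overlap in both experiments, and the levels of the 2 treated groups overlapped each other. DIAPH3, a formin that elongates filaments for division and cortical actin, had 3.73, 7.27 and 4.47 CPM in smTEADi tumours, against 13.4, 9.7 and 17.4 CPM in Vehicle tumours (-1.37 ± 0.28, adjusted p = 0.0388). In the doxycycline experiment DIAPH3 had 5.87, 6.78 and 8.82 CPM in pTEADi tumours, against 14.1, 13.8 and 16.2 CPM in Control tumours (-1.03 ± 0.17, adjusted p = 0.00113). Both genes were lowest among Vehicle tumours in Vehicle 2. The 8 proliferation markers (such as MKI67 and TOP2A), all measured, moved with them: their sum was 147 to 298 CPM in smTEADi tumours against 453 to 736 CPM in Vehicle tumours. It was 319 to 409 CPM in pTEADi tumours against 744 to 759.9 CPM in Control tumours. All 8 fell in both comparisons, and the sum was also lowest among Vehicle tumours in Vehicle 2. The part of cell division in these results was not tested. The SW-682 adjusted p-values of ANLN and DIAPH3 became 0.0518 to 0.0627 without smTEADi 3, 0.134 to 0.143 without Vehicle 1 and 0.184 without Vehicle 3, and that of DIAPH3 became 0.0641 without smTEADi 1. Positions of these protein-coding genes are given in GRCh38 from Gencode 44: ANLN (ENSG00000011426.11, chromosome 7, 36389821 to 36453791, plus strand) and DIAPH3 (ENSG00000139734.19, chromosome 13, 59665583 to 60163928, minus strand).

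**Figure D2:**
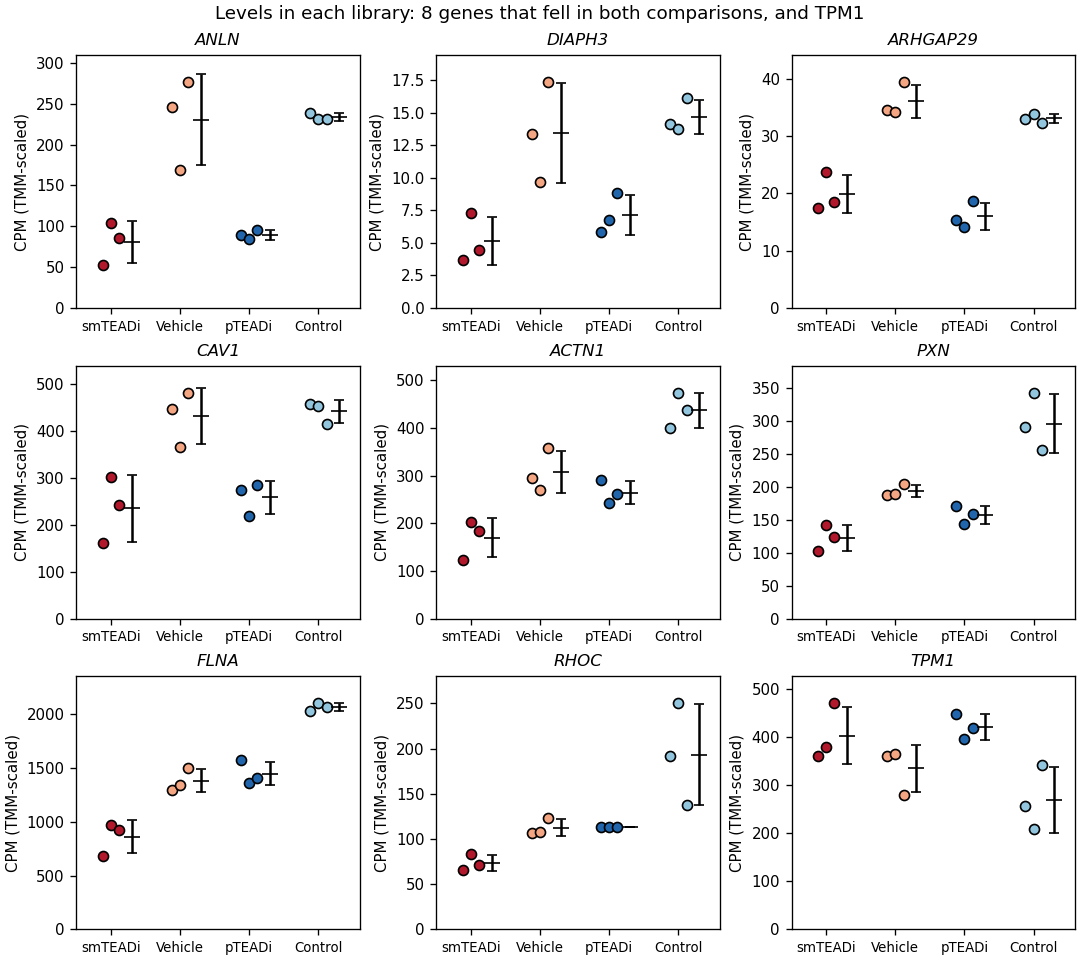
Level of ANLN, DIAPH3, ARHGAP29, CAV1, ACTN1, PXN, FLNA, RHOC and TPM1 in each library (points, TMM-scaled CPM), with the mean ± SD of each group of 3 beside them. In the first 8 panels every smTEADi point lies below every Vehicle point and every pTEADi point below every Control point, and TPM1 has pTEADi above Control.

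ARHGAP29 and RHOC fell in both comparisons, the formin DIAPH1 fell under pTEADi, and RHOA, ROCK1 and ROCK2 passed in neither. ARHGAP29, a GTPase-activating protein that switches RhoA off, had 17.4, 23.6 and 18.5 CPM in smTEADi tumours, against 34.5, 34.2 and 39.4 CPM in Vehicle tumours (-0.85 ± 0.14, adjusted p = 0.0365). Under pTEADi, ARHGAP29 had 15.3, 14.1 and 18.6 CPM in pTEADi tumours, against 33, 33.9 and 32.4 CPM in Control tumours (-1.04 ± 0.12, adjusted p = 0.000132). It was near 0.485 times the Control level by this fold change, and the ranges of the 2 control groups ran close to each other. RHOC, a GTPase gene often linked to invasion, had 66.1, 82.9 and 71.5 CPM in smTEADi tumours, against 106, 107 and 124 CPM in Vehicle tumours (-0.61 ± 0.11, adjusted p = 0.0365). In the doxycycline experiment RHOC had 113, 114 and 113 CPM in pTEADi tumours, against 191, 249.8 and 138 CPM in Control tumours (-0.76 ± 0.16, adjusted p = 0.00508), with pTEADi libraries close together and Control libraries spread. RHOA, its close relative and the most abundant of these genes per exon length in all groups but Control, did not pass. It had 157, 177 and 163 CPM in smTEADi tumours, against 179.7, 168 and 184 CPM in Vehicle tumours (-0.09 ± 0.09, adjusted p = 0.564). Its other values were 172, 156 and 167 CPM in pTEADi tumours, against 174, 186 and 166 CPM in Control tumours (-0.09 ± 0.08, adjusted p = 0.496). DIAPH1, the formin that RhoA activates, had 165, 145 and 159.9 CPM in pTEADi tumours, against 218, 237 and 217 CPM in Control tumours and fell (-0.52 ± 0.09, adjusted p = 0.00121). Under SW-682 DIAPH1 had 153, 173 and 142 CPM in smTEADi tumours, against 193, 202 and 209.8 CPM in Vehicle tumours (-0.36 ± 0.10, adjusted p = 0.0662), with no overlap but short of the threshold. The kinases ROCK1 and ROCK2, which raise myosin activity, had log2 fold changes of -0.14 ± 0.13 and -0.25 ± 0.12 under SW-682 and -0.22 ± 0.11 and -0.16 ± 0.11 under pTEADi. The SW-682 adjusted p-values of ARHGAP29 and RHOC became 0.0518 to 0.0566 without smTEADi 3, 0.134 without Vehicle 1 and 0.184 without Vehicle 3. In GRCh38, ARHGAP29 is ENSG00000137962.13, chromosome 1, 94148988 to 94275068, minus strand, and RHOC is ENSG00000155366.17, chromosome 1, 112701127 to 112707434, minus strand.

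Among the filament cross-linkers, ACTN1 and FLNA fell under both inhibitors, LIMA1 fell under pTEADi and ACTN4 passed in neither. ACTN1, the alpha-actinin of stress fibres and adhesions, had 124, 203 and 184 CPM in smTEADi tumours, against 294, 271 and 357 CPM in Vehicle tumours (-0.85 ± 0.18, adjusted p = 0.0397). Under pTEADi it had 290.2, 242 and 262 CPM in pTEADi tumours, against 399.7, 474 and 438 CPM in Control tumours (-0.72 ± 0.10, adjusted p = 0.000411). Its paralog ACTN4 overlapped between the groups in both. It had 631, 592 and 583 CPM in smTEADi tumours, against 581, 613 and 639 CPM in Vehicle tumours (adjusted p = 0.938). In the doxycycline experiment it had 700.0, 699.9 and 674 CPM in pTEADi tumours, against 677, 673 and 727 CPM in Control tumours (adjusted p = 0.993). ACTN4 stood at 8.71 ± 2.78 times ACTN1 per exon length in smTEADi tumours and 4.69 ± 0.557 times in Vehicle tumours (SD, n = 3 each). The ratio was 6.14 ± 0.57 in pTEADi tumours and 3.72 ± 0.349 in Control tumours, and neither pair of groups overlapped. The deposited counts were not whole in any of the 12 libraries for ACTN4 and in 1 of the 12 for ACTN1, as arises where reads match more than 1 gene. FLNA, filamin A, which joins filaments into nets and links them to the membrane, had 685, 974 and 927 CPM in smTEADi tumours, against 1298, 1343 and 1499.5 CPM in Vehicle tumours (-0.67 ± 0.15, adjusted p = 0.0414). In the doxycycline experiment FLNA had 1575, 1363 and 1408 CPM in pTEADi tumours, against 2028, 2099.9 and 2063 CPM in Control tumours (-0.51 ± 0.10, adjusted p = 0.00287). The smTEADi 1 library, which stood apart from its group, was the lowest of all 12 for both ACTN1 and FLNA. LIMA1, or EPLIN, which bundles filaments and slows their turnover, had 98.6, 87.9 and 113 CPM in pTEADi tumours, against 132, 139 and 140.5 CPM in Control tumours (-0.45 ± 0.10, adjusted p = 0.00594), whereas in the SW-682 experiment its groups overlapped (-0.34 ± 0.13, adjusted p = 0.129). The SW-682 adjusted p-values of ACTN1 and FLNA became 0.0568 to 0.0594 without smTEADi 3, 0.143 without Vehicle 1 and 0.188 to 0.198 without Vehicle 3, and that of FLNA 0.0575 without smTEADi 1 and 0.0515 without smTEADi 2. In GRCh38, ACTN1 is ENSG00000072110.16, chromosome 14, 68874128 to 68979440, minus strand, and FLNA is ENSG00000196924.19, chromosome X, 154348524 to 154374634, minus strand.

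Of the focal adhesion genes, PXN fell in both comparisons, ZYX under SW-682 and PDLIM7 under pTEADi, while the talin, vinculin and kinase genes did not pass. PXN encodes paxillin, the adaptor on which adhesion kinases assemble. It had 102, 141 and 124 CPM in smTEADi tumours, against 188, 189 and 204 CPM in Vehicle tumours (-0.65 ± 0.12, adjusted p = 0.0365). Under pTEADi it had 171, 144 and 158 CPM in pTEADi tumours, against 289.8, 342 and 255 CPM in Control tumours (-0.91 ± 0.11, adjusted p = 0.000225), with every Control library above the Vehicle libraries. ZYX, zyxin, which moves to stretched filaments and repairs them, had 86.8, 95.2 and 93.9 CPM in smTEADi tumours, against 119, 117 and 137 CPM in Vehicle tumours (-0.43 ± 0.10, adjusted p = 0.0451). Its groups did not overlap under pTEADi either, with 157, 162 and 159 CPM in pTEADi tumours, against 188, 232 and 169 CPM in Control tumours, but it missed the threshold (-0.30 ± 0.11, adjusted p = 0.0653) and passed without Control 3 (adjusted p = 0.00907). PDLIM7, a PDZ and LIM protein of stress fibres, had 173, 155 and 151 CPM in pTEADi tumours, against 231, 299.6 and 186 CPM in Control tumours (-0.58 ± 0.14, adjusted p = 0.011). That call was lost without pTEADi 2 (adjusted p = 0.059) or pTEADi 3 (adjusted p = 0.0632), and under SW-682 PDLIM7 lay lower with no overlap but short of the threshold (-0.52 ± 0.15, adjusted p = 0.0635). TLN1, talin, which activates integrins, had log2 fold changes of -0.34 ± 0.11, adjusted p = 0.0969 under SW-682 and -0.27 ± 0.10, adjusted p = 0.0541 under pTEADi, and passed under pTEADi without Control 2 (adjusted p = 0.0253). VCL, vinculin, which strengthens the talin link, gave -0.09 ± 0.10 and -0.21 ± 0.09 in the same order. The kinases PTK2 (focal adhesion kinase) and ILK had log2 fold changes of 0.03 ± 0.09 and 0.04 ± 0.09 under SW-682 and -0.13 ± 0.09 and -0.25 ± 0.10 under pTEADi. FERMT1, the kindlin of epithelia, overlapped between groups in both experiments, with 70.0 to 99.6 CPM in smTEADi tumours, 91.7 to 100.05 CPM in Vehicle tumours, 78.4 to 90.2 CPM in pTEADi tumours and 76.5 to 93.6 CPM in Control tumours, and so did PDLIM5. The SW-682 adjusted p-values of PXN and ZYX became 0.055 to 0.0703 without smTEADi 3, 0.134 to 0.144 without Vehicle 1 and 0.184 to 0.211 without Vehicle 3, and that of ZYX 0.0886 without smTEADi 1 and 0.0761 without smTEADi 2. In GRCh38, PXN is ENSG00000089159.17, chromosome 12, 120210439 to 120265771, minus strand.

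**Figure D3:**
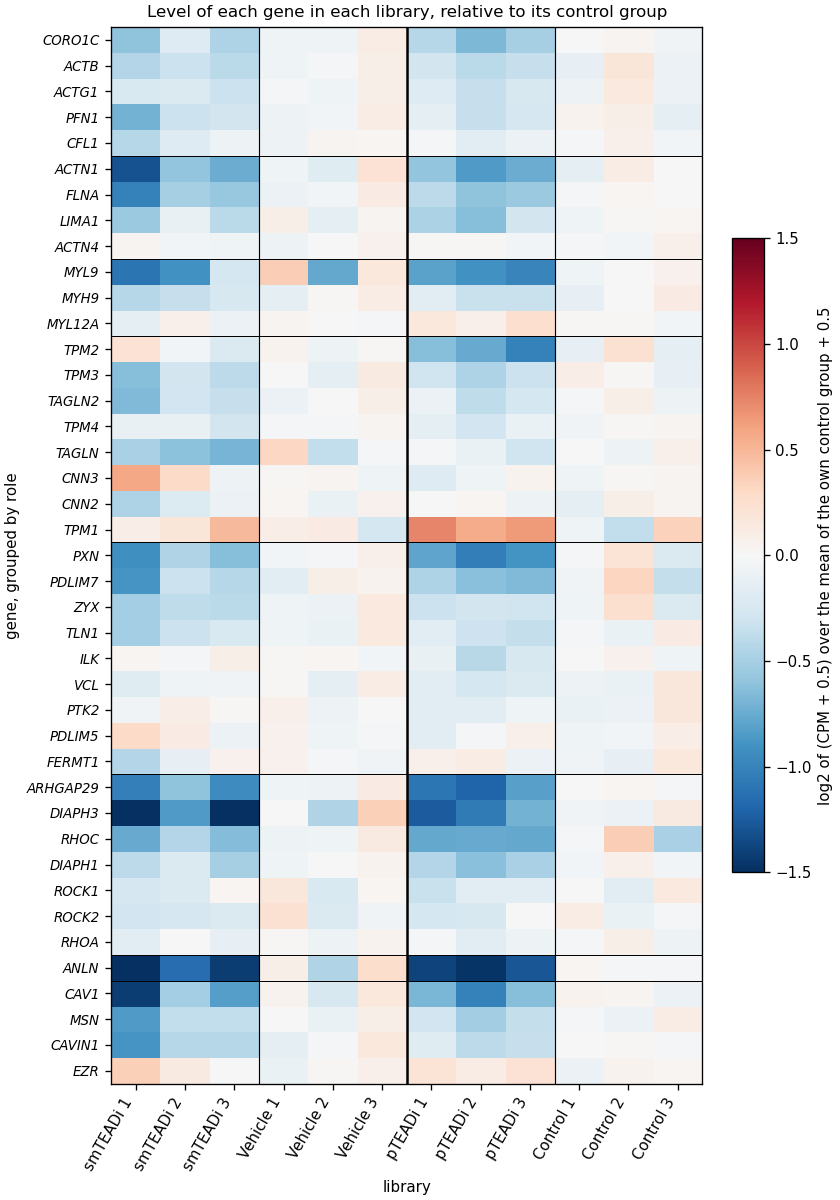
Level of each of the 41 genes in each library as log2 of (CPM + 0.5) over the same quantity for the mean of its own control group, with the colour scale cut at both ends. The smTEADi 1 column is the darkest of its group for ACTN1, FLNA, PXN and CAV1, and Vehicle 2 is the bluest Vehicle column for ANLN, DIAPH3 and MYL9.

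The 4 tropomyosins, which lie along filaments and decide which motors and severing proteins reach them, moved in different directions under pTEADi. TPM1 had 448, 396 and 419 CPM in pTEADi tumours, against 257, 208 and 343 CPM in Control tumours and rose (0.64 ± 0.15, adjusted p = 0.00802). TPM2 had 23.2, 21.3 and 17.7 CPM in pTEADi tumours, against 33.2, 42.7 and 33.1 CPM in Control tumours and fell (-0.81 ± 0.14, adjusted p = 0.00125). TPM3 had 272, 244 and 269 CPM in pTEADi tumours, against 359, 339.7 and 309.8 CPM in Control tumours and fell (-0.36 ± 0.09, adjusted p = 0.0119), a call lost without pTEADi 2 (adjusted p = 0.0829) or Control 1 (adjusted p = 0.0673). TPM4 did not pass (-0.18 ± 0.09, adjusted p = 0.162). Under SW-682 none of the 4 passed. TPM1 had 360.2, 379 and 470.2 CPM in smTEADi tumours, against 360.2, 365 and 279 CPM in Vehicle tumours (0.27 ± 0.14, adjusted p = 0.247), and the groups overlapped. TPM2 had 23.6, 19.7 and 17.3 CPM in smTEADi tumours, against 21, 19.1 and 20.5 CPM in Vehicle tumours (0.01 ± 0.14, adjusted p = 0.976). TPM3 had 204, 261 and 242 CPM in smTEADi tumours, against 316, 287 and 348 CPM in Vehicle tumours (-0.42 ± 0.12, adjusted p = 0.0681), and it passed without Vehicle 2 (adjusted p = 0.049). Taken as a share of the 4 genes' summed level per exon length, TPM1 was 31.9 ± 4.11% in smTEADi tumours and 25 ± 3.51% in Vehicle tumours. It was 33.4 ± 0.605% in pTEADi tumours and 20.4 ± 4.53% in Control tumours (SD, n = 3 each). The share was higher with no overlap in both, although the TPM1 level itself was not in the first. TPM2 held 7.61 ± 1.05% in pTEADi tumours and 12.8 ± 2.16% in Control tumours, and the TPM3 share was lower in the treated group in both experiments with no overlap. TPM1 and TPM4 had non-whole counts in all 12 libraries, so reads were divided with other genes, and a gene total does not show which tropomyosin isoform was made. In GRCh38, TPM1 is ENSG00000140416.23, chromosome 15, 63042620 to 63071915, plus strand.

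The calponin-like genes CNN2, CNN3, TAGLN and TAGLN2, which bind filaments beside tropomyosin, passed in neither comparison, as did MYH9 and MYL12A of non-muscle myosin II. TAGLN2, the most abundant of the tropomyosin and calponin genes per exon length, had 565, 735 and 706 CPM in smTEADi tumours, against 841, 893 and 956 CPM in Vehicle tumours (-0.42 ± 0.13, adjusted p = 0.078). It had 1166, 947 and 1026 CPM in pTEADi tumours, against 1221, 1309.8 and 1177 CPM in Control tumours (-0.24 ± 0.10, adjusted p = 0.113). Its groups did not overlap in either. TAGLN, a smooth muscle marker present at low level, had 6.14, 5.57 and 5.25 CPM in smTEADi tumours, against 11, 6.68 and 8.65 CPM in Vehicle tumours (-0.63 ± 0.21, adjusted p = 0.0979), and passed without Vehicle 2 (adjusted p = 0.0395). TAGLN had 8.89, 8.37 and 7.22 CPM in pTEADi tumours, against 9.03, 8.54 and 9.53 CPM in Control tumours (-0.15 ± 0.16, adjusted p = 0.534). It was among the rarest of the 42 transcripts. MYH9, the heavy chain of myosin IIA and the most abundant of the 3 myosin genes per exon length, had 989.9, 1046 and 1122 CPM in smTEADi tumours, against 1209.9, 1344 and 1433 CPM in Vehicle tumours (-0.33 ± 0.12, adjusted p = 0.11). Under pTEADi MYH9 had 1631, 1455 and 1455 CPM in pTEADi tumours, against 1678, 1816 and 1994 CPM in Control tumours (-0.27 ± 0.11, adjusted p = 0.0771). Its groups also lay apart in both experiments without passing. MYL9, a regulatory light chain strong in contractile cells, had 8.89, 8.23 and 7.78 CPM in pTEADi tumours, against 15.2, 15.9 and 16.7 CPM in Control tumours and fell (-0.94 ± 0.13, adjusted p = 0.000479). Under SW-682 MYL9 had 5.33, 6.16 and 9.86 CPM in smTEADi tumours, against 15.6, 6.82 and 13.4 CPM in Vehicle tumours (-0.74 ± 0.32, adjusted p = 0.168), with Vehicle 2 inside the smTEADi range, and it passed without that library (adjusted p = 0.0385). MYL12A, the other regulatory light chain, had 136, 128 and 146 CPM in pTEADi tumours, against 123, 124 and 118 CPM in Control tumours (0.17 ± 0.08, adjusted p = 0.158). The MYL9 share of these 2 light chains per exon length was 6.18 ± 0.624% in pTEADi tumours and 12.4 ± 0.762% in Control tumours. It was 5.66 ± 1.92% in smTEADi tumours and 8.78 ± 3.08% in Vehicle tumours (SD, n = 3 each), and these groups overlapped. Beside MYL9, TPM2 and TAGLN, the summed smooth muscle and pericyte markers were 738 to 939 CPM in smTEADi tumours and 609 to 745 CPM in Vehicle tumours. The sum was 769 to 918 CPM in pTEADi tumours and 617 to 830.0 CPM in Control tumours. Apart from NOTCH3, no gene of that list passed 4 CPM in any library.

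**Figure D4:**
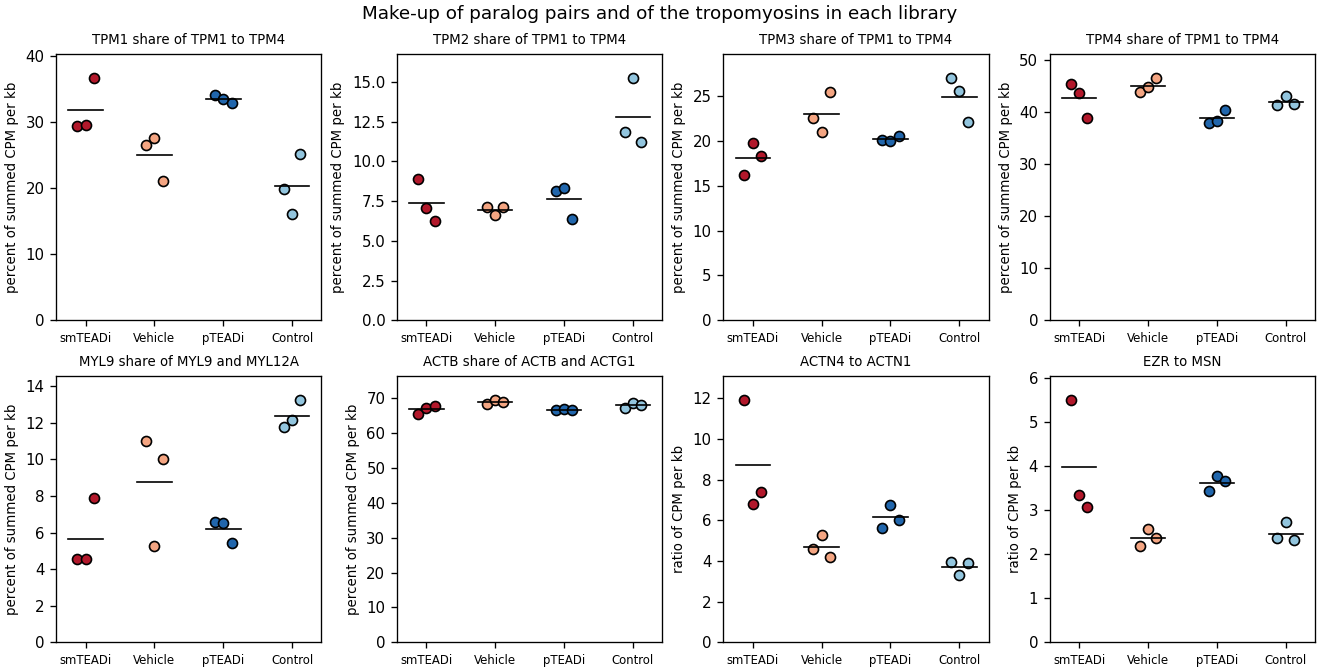
Make-up of the tropomyosins, light chains and actins (percent of the family's summed CPM per kb of exon) and the ratios ACTN4 to ACTN1 and EZR to MSN, in each library, with a line at the group mean of 3. The TPM1 share and both ratios lie higher in the treated group in both experiments with no overlap, and the TPM2 share lies lower in pTEADi than in Control tumours and overlaps between smTEADi and Vehicle tumours.

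The actins and the proteins that turn filaments over had small negative fold changes. All 5 were negative in both comparisons, 0 fell under SW-682 (an unadjusted p under 0.05 for 3, 3 called by DESeq2 and 0 by limma-voom), and 2 fell under pTEADi. Of all genes tested, 48.9% were negative and 3.48% fell under SW-682, and 50.1% were negative and 13.6% fell under pTEADi. CORO1C, a coronin that binds filaments at the cell edge, had 110.2, 92.7 and 105 CPM in pTEADi tumours, against 149, 152 and 143 CPM in Control tumours (-0.53 ± 0.09, adjusted p = 0.0012). It did not pass under SW-682, with 105, 139.5 and 116 CPM in smTEADi tumours, against 153, 153 and 173 CPM in Vehicle tumours (-0.40 ± 0.12, adjusted p = 0.0739). ACTB, beta-actin, had 4167, 3789 and 3973 CPM in pTEADi tumours, against 4630.2, 5720.1 and 4739 CPM in Control tumours (-0.34 ± 0.12, adjusted p = 0.0499). It sat on the threshold: the call was lost without pTEADi 1 (adjusted p = 0.0973), pTEADi 2 (adjusted p = 0.195), pTEADi 3 (adjusted p = 0.14), Control 1 (adjusted p = 0.0647) or Control 2 (adjusted p = 0.123). Under SW-682 ACTB had 3109, 3365 and 3179 CPM in smTEADi tumours, against 4013, 4141 and 4481 CPM in Vehicle tumours (-0.38 ± 0.12, adjusted p = 0.0878). The gamma-actin gene ACTG1 and the monomer-binding profilin gene PFN1 did not pass, with log2 fold changes of -0.25 ± 0.11, adjusted p = 0.19 and -0.42 ± 0.13, adjusted p = 0.0852 under SW-682. Under pTEADi they were -0.25 ± 0.10, adjusted p = 0.0953 and -0.24 ± 0.10, adjusted p = 0.0927, and both passed without Control 3 (adjusted p = 0.0468 and 0.0242). CFL1, cofilin, which severs old filaments, gave -0.23 ± 0.12, adjusted p = 0.237 under SW-682 and -0.09 ± 0.09, adjusted p = 0.503 under pTEADi. ACTB is often used as a constant gene for scaling other measurements, and its mean level is given for that use: 3218 ± 132 CPM in smTEADi tumours and 4212 ± 242 CPM in Vehicle tumours, and 3976 ± 189 CPM in pTEADi tumours and 5029.8 ± 600.3 CPM in Control tumours (SD, n = 3 each). The ACTB share of the 2 actins was 66.8 ± 1.05% in smTEADi tumours, 68.8 ± 0.611% in Vehicle tumours, 66.7 ± 0.221% in pTEADi tumours and 67.9 ± 0.631% in Control tumours.

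CAV1 and the coat gene CAVIN1 build caveolae, the membrane pits that flatten under tension, and MSN and EZR link filaments to the membrane. CAV1 had 160.0, 302 and 242 CPM in smTEADi tumours, against 446, 365 and 481 CPM in Vehicle tumours (-0.87 ± 0.21, adjusted p = 0.0464). Under pTEADi CAV1 had 273, 218 and 284 CPM in pTEADi tumours, against 456, 453 and 413 CPM in Control tumours (-0.77 ± 0.11, adjusted p = 0.000426). It fell in both with no overlap, and smTEADi 1 was again the lowest library. CAVIN1 had 454, 393 and 406 CPM in pTEADi tumours, against 518, 522 and 503 CPM in Control tumours (-0.30 ± 0.09, adjusted p = 0.0279), a call lost without pTEADi 2 (adjusted p = 0.15), pTEADi 3 (adjusted p = 0.101) or Control 1 (adjusted p = 0.0887). Under SW-682 CAVIN1 had 190.3, 261 and 262 CPM in smTEADi tumours, against 318, 346 and 394 CPM in Vehicle tumours (-0.56 ± 0.14, adjusted p = 0.0523), a larger fold change that missed the threshold. MSN, moesin, had 464, 394 and 441 CPM in pTEADi tumours, against 554, 529 and 609 CPM in Control tumours (-0.38 ± 0.10, adjusted p = 0.0133), a call lost without pTEADi 2 (adjusted p = 0.0903). In the SW-682 experiment MSN had 320.5, 450.3 and 447 CPM in smTEADi tumours, against 584, 541 and 615 CPM in Vehicle tumours (-0.51 ± 0.14, adjusted p = 0.0631). EZR, ezrin, the family member typical of epithelia, did not pass. Its levels were 507, 434 and 395 CPM in smTEADi tumours, against 368, 399 and 417 CPM in Vehicle tumours (0.18 ± 0.12, adjusted p = 0.356). For pTEADi they were 459, 429 and 464 CPM in pTEADi tumours, against 377, 415 and 406 CPM in Control tumours (0.18 ± 0.09, adjusted p = 0.158). The ratio of EZR to MSN per exon length was 3.97 ± 1.32 in smTEADi tumours and 2.37 ± 0.188 in Vehicle tumours. It was 3.62 ± 0.175 in pTEADi tumours and 2.46 ± 0.221 in Control tumours (SD, n = 3 each), with no overlap in either pair. The SW-682 adjusted p of CAV1 became 0.0548 without smTEADi 1, 0.0728 without smTEADi 3, 0.157 without Vehicle 1 and 0.206 without Vehicle 3. In GRCh38, CAV1 is ENSG00000105974.13, chromosome 7, 116524994 to 116561179, plus strand.

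Between genes, levels can be compared only per exon length, here CPM per kb of the gene's merged exons in Gencode 44, which counts every annotated exon as used. ACTB was first in each group, at 730.5 ± 30.0 CPM per kb in smTEADi, 956 ± 54.9 in Vehicle, 903 ± 43 in pTEADi and 1142 ± 136 in Control tumours (SD, n = 3 each). ACTG1, TAGLN2 and PFN1 came next. In Control tumours TAGLN2 at 546 ± 30.0 and ACTG1 at 538 ± 50.4 CPM per kb did not differ beyond their spread, nor did PFN1 at 484 ± 41.8 from ACTG1. At the low end stood TAGLN, DIAPH3 and ARHGAP29, with FERMT2 last in every group. FLNA stood above EZR in Control and Vehicle tumours (190.0 ± 3.33 against 121 ± 6.06, and 127 ± 9.74 against 120.1 ± 7.66, the second within the spread). In smTEADi tumours the order was turned, with FLNA at 79.4 ± 14.3 and EZR at 136 ± 17.2 CPM per kb, and in pTEADi tumours the 2 lay within their spread.

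**Figure D5:**
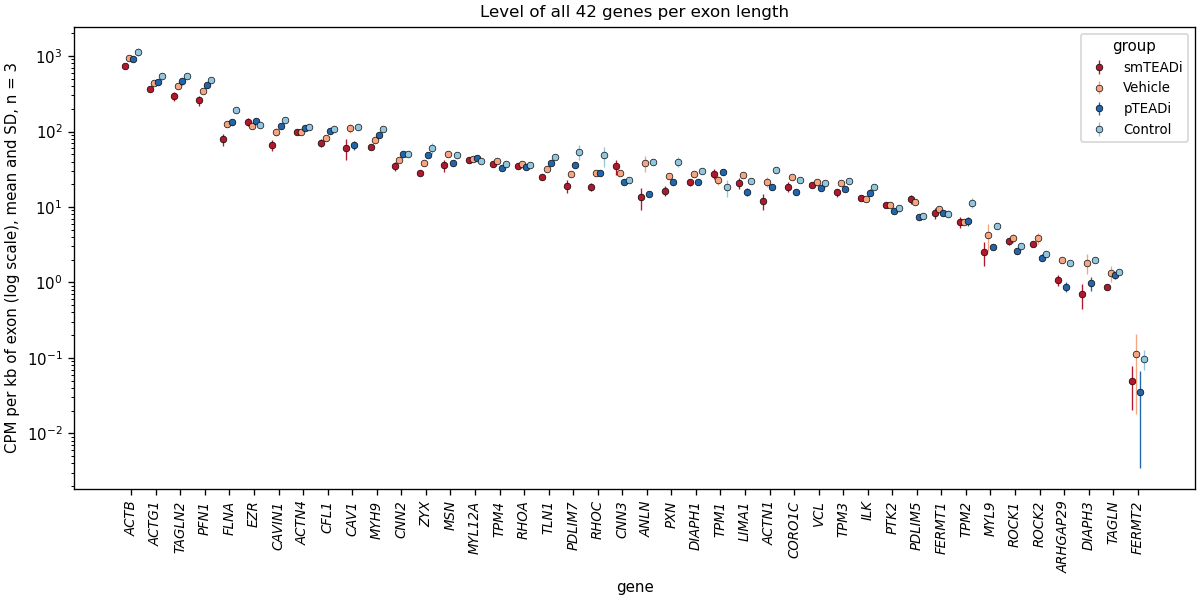
Level of the 42 genes as CPM per kb of exon on a log axis (mean with SD bars, n = 3), ordered by their mean over groups, with smTEADi, Vehicle, pTEADi and Control side by side for each gene. ACTB is highest and FERMT2 lowest in all 4 groups; bars that would pass below 0, as for FERMT2 in pTEADi tumours, are cut.

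Of the 41 genes tested in both comparisons, 34 had the same sign in both, 32 of them negative, against 75.8% same-sign among the 14384 genes tested in both. The comparisons share no library. Across the 41 genes, which are not independent, fold changes correlated at Pearson's r = 0.829 and a Spearman rank correlation of 0.793, beside 0.675 and 0.671 over all genes. The 8 genes that fell in both (ACTN1, FLNA, PXN, RHOC, ARHGAP29, DIAPH3, ANLN and CAV1) were 8 of the 9 that fell under SW-682 and 8 of the 18 that fell under pTEADi, where 3.27% of all genes fell in both. The difference of the effects, (pTEADi minus Control) minus (smTEADi minus Vehicle), was tested in 1 fit of 12 libraries, in which 0.0129% of 15460 genes passed. None of the 42 genes did, 2 (TPM2 and ILK) had an unadjusted p under 0.05, and DESeq2 and limma-voom called 0. Differences ran from -0.81 ± 0.20 for TPM2 (adjusted p = 0.396) to 0.49 ± 0.25 for TAGLN, with a median SE of 0.167. TPM2 fell under pTEADi and had 0.01 ± 0.14, adjusted p = 0.976 under SW-682. Its difference did not pass (adjusted p = 0.396), so that gene's effects are not shown to differ. For the genes that fell in both, the differences were 0.12 ± 0.22 for ACTN1, 0.17 ± 0.17 for FLNA, -0.25 ± 0.18 for PXN, -0.16 ± 0.23 for RHOC, -0.19 ± 0.18 for ARHGAP29, 0.34 ± 0.35 for DIAPH3, 0.12 ± 0.28 for ANLN and 0.10 ± 0.26 for CAV1, and a p short of the threshold does not show that the inhibitors act alike.

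A further 104 genes of the actin and adhesion machinery, in 9 lists, were read for comparison, all of them tested. These lists too were chosen with earlier results of these data known, so their counts are a description. Under SW-682, 10 of the 104 fell (9.62%) and 1 rose, with a median of -0.13. Of all genes tested there, 3.48% fell and 2.02% rose. Under pTEADi, 34 of the 104 fell (32.7%) and 8 rose, with a median of -0.13. Of all genes tested in that comparison, 13.6% fell and 12.7% rose. Cytokinesis and septin genes moved most often: 6 of 9 fell under SW-682 and 7 of 9 under pTEADi. KIF23, a motor of the central spindle, had 15.9, 20.6 and 20.4 CPM in smTEADi tumours, against 45.1, 34.4 and 55.5 CPM in Vehicle tumours (-1.24 ± 0.18, adjusted p = 0.0365). With pTEADi, it had 21.5, 19.8 and 21.3 CPM in pTEADi tumours, against 45, 44.4 and 46.5 CPM in Control tumours (-1.12 ± 0.09, adjusted p = 2.62e-05). CIT, a kinase of the midbody, and SEPTIN9, which anillin recruits, fell in both, with log2 fold changes of -1.16 ± 0.18, adjusted p = 0.0365 and -0.66 ± 0.13, adjusted p = 0.0367 under SW-682 and -0.86 ± 0.11, adjusted p = 0.000242 and -0.26 ± 0.09, adjusted p = 0.046 under pTEADi. PRC1 and RACGAP1, which build the central spindle, also fell in both. They gave -1.16 ± 0.26, adjusted p = 0.0426 and -0.78 ± 0.16, adjusted p = 0.0392 under SW-682 and -0.93 ± 0.10, adjusted p = 9.4e-05 and -0.79 ± 0.09, adjusted p = 0.000154 under pTEADi. The proliferation markers given beside ANLN moved with this list, and their part was not tested. Of 23 partners of focal adhesions, 2 fell under SW-682, LASP1 (-0.39 ± 0.09, adjusted p = 0.0431) and VASP (-0.48 ± 0.12, adjusted p = 0.0475), both filament proteins that bind zyxin. Both also fell under pTEADi (-0.38 ± 0.08, adjusted p = 0.00654 and -0.44 ± 0.10, adjusted p = 0.00568). Under pTEADi 11 of 23 fell and 0 rose (0 by an unadjusted p, DESeq2 or limma-voom), led by PARVB, a partner of ILK (-0.95 ± 0.15, adjusted p = 0.000879), TNS4, a tensin (-0.56 ± 0.10, adjusted p = 0.00153), and NEDD9, a docking protein for adhesion kinases (-0.89 ± 0.16, adjusted p = 0.00216).

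Of 15 genes of branched filament nucleation, the Arp2/3 complex and its activators, 0 passed under SW-682 and 2 under pTEADi. Of all genes tested, 5.5% passed under SW-682 and 26.3% under pTEADi. Whether this short list differed from all genes was not tested. Under SW-682 0 of 15 fell and 0 rose (1 each by an unadjusted p, 1 lower by DESeq2 and 0 by limma-voom), and under pTEADi WASF2, a WAVE subunit, fell (-0.25 ± 0.08, adjusted p = 0.0346) and BRK1, another, rose (0.40 ± 0.09, adjusted p = 0.00568). The Arp2/3 subunit gene ARPC1B, singled out after its values were seen, had 53.2, 89.5 and 97.5 CPM in smTEADi tumours, against 125, 122 and 145 CPM in Vehicle tumours (-0.70 ± 0.20, adjusted p = 0.0629), lower with no overlap but short of the threshold, and -0.16 ± 0.09, adjusted p = 0.23 under pTEADi. Among turnover genes, TMSB10, a thymosin that holds actin monomers, fell in both (-0.51 ± 0.13, adjusted p = 0.0483 under SW-682 and -0.66 ± 0.14, adjusted p = 0.00479 under pTEADi), but its SW-682 call was lost without any 1 of the 6 libraries. GSN, gelsolin, which severs and caps filaments, had 549.6, 558 and 509.6 CPM in pTEADi tumours, against 260.5, 291 and 267 CPM in Control tumours and rose (0.98 ± 0.09, adjusted p = 3.87e-05). PFN2, the second profilin, had 13.6, 12.9 and 14 CPM in pTEADi tumours, against 7.63, 5.81 and 7.49 CPM in Control tumours and rose (0.95 ± 0.15, adjusted p = 0.000992), and the cofilin phosphatase SSH1 fell (-0.46 ± 0.09, adjusted p = 0.0035). In contractility, MYH14, the heavy chain of myosin IIC, rose in both. It had 249, 161 and 189 CPM in smTEADi tumours, against 108, 127 and 124 CPM in Vehicle tumours (0.75 ± 0.16, adjusted p = 0.0393). It also had 258, 261 and 214 CPM in pTEADi tumours, against 156, 176 and 171 CPM in Control tumours (0.54 ± 0.10, adjusted p = 0.00202). MYLK, which phosphorylates the light chains, and MYO1E fell under pTEADi (-0.65 ± 0.15, adjusted p = 0.00879, and -0.48 ± 0.09, adjusted p = 0.00187). The formins FMNL2 (-0.75 ± 0.10, adjusted p = 0.000405) and FMNL1 (-0.96 ± 0.24, adjusted p = 0.0108) fell and DAAM1 (0.43 ± 0.09, adjusted p = 0.0038) rose under pTEADi. CAVIN3, a caveolar coat gene like CAVIN1, fell in both (-0.98 ± 0.20, adjusted p = 0.0389 under SW-682 and -0.87 ± 0.19, adjusted p = 0.00517 under pTEADi). Under pTEADi CAV2, the partner of CAV1, fell (-0.46 ± 0.09, adjusted p = 0.00288), and NHERF1, an ezrin-binding scaffold, rose (0.66 ± 0.10, adjusted p = 0.000622). The regulators SRF (-0.31 ± 0.09, adjusted p = 0.0217) and MRTFA (-0.52 ± 0.09, adjusted p = 0.0017) fell under pTEADi, and of that list of 3 genes 0 fell under SW-682 (1 by an unadjusted p, 0 by DESeq2 and 0 by limma-voom). Under SW-682, 5 of the 104 genes fell without smTEADi 1, 6 without smTEADi 2 and 15 without Vehicle 2. Of the genes named from these lists, the calls of TMSB10, LASP1, VASP and RACGAP1 were lost without smTEADi 1. Those of TMSB10, LASP1 and VASP were lost without smTEADi 2, and that of TMSB10 without Vehicle 2. Without any 1 of smTEADi 3, Vehicle 1 and Vehicle 3, 0 of the 104 fell and 0 rose. Under pTEADi, of the genes named from these lists, the call of MYLK was lost without pTEADi 2 (adjusted p = 0.0557), of FMNL1 without pTEADi 3 (adjusted p = 0.0573), of SRF without pTEADi 2 (adjusted p = 0.121) or Control 1 (adjusted p = 0.0508), of SEPTIN9 without pTEADi 1 (adjusted p = 0.0646), pTEADi 2 (adjusted p = 0.212), pTEADi 3 (adjusted p = 0.114), Control 1 (adjusted p = 0.0867) or Control 2 (adjusted p = 0.103), and of WASF2 without pTEADi 1 (adjusted p = 0.114), pTEADi 2 (adjusted p = 0.0885), pTEADi 3 (adjusted p = 0.104), Control 1 (adjusted p = 0.0805) or Control 3 (adjusted p = 0.0555). For the difference of the effects, 0 of the 104 genes passed (3 lower and 9 higher by an unadjusted p, 1 by DESeq2 and 0 by limma-voom).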

How the data were processed

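Poly-T selected RNA of 12 xenograft tumour samples was read in pairs of 150 bp, per the labels' protocols and the design text. Per the submitters' processing notes and the series' design text, the authors aligned reads to GRCh38 with STAR 2.7.9a, using Gencode 38, and estimated counts with RSEM 1.3.1. What the authors deposited are expected counts of each gene, unscaled, in a table for each experiment. Of the 42 genes, 7 had non-whole counts in all 12 libraries (ACTN4, TPM1, TPM4, TAGLN, PXN, VCL and ILK), 5 in some and 30 in none. Strand use in counting is not given in the sources used here, so reads of a gene and of an antisense partner cannot be told apart.

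After rounding, tests were run in R 4.3.3 with edgeR 4.0.16: filterByExpr with a minimum count of 10, TMM scaling, the two-sided quasi-likelihood test, and Benjamini-Hochberg adjustment over all genes tested in each comparison, with 0.05 as the threshold. A fold change's SE was taken as its log2 size over the square root of F. CPM levels use 1 TMM scaling of all 12 libraries. Samples were grouped by their labels, and each treatment was compared with the control of its own table, with 3 libraries a group. Library totals set the counting precision of each value. The test was also run on simulated data, and that outcome is not reported here, so it lends no support to the calls above. The genes, the 8 role lists, the 104 further genes and the 8 marker lists were chosen with earlier results of these data known. All 42 genes are named, with full statistics for those past the threshold and for the most abundant per exon length of each role list, and of each further list up to 3 genes per comparison with the smallest p and no overlap between groups, given in both comparisons where they passed in both. Marker genes past the threshold are named too. Names, positions and exon lengths come from Gencode 44 (60463 of 60649 gene IDs had a symbol), and MYLPF of the marker lists was not matched. The result of 1 further list and the count of 1 role list are not reported here. Promoter windows come from RefSeq, and protein sequences were not analysed here. Alternatives tried were scaling by RLE or by the upper quartile, testing with no filter on low counts or with 10 counts in 3 libraries, DESeq2 1.42.0, limma-voom (3.58.1), unrounded counts, a threshold of 0.01, a replicate block, protein-coding genes only, the spread of all 12 libraries, and leaving out each library.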

Additional observations from a re-analysis of the deposited data

How the results depend on the processing

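No called fold change of the 42 genes or of the named further genes changed sign under any alternative run. Under SW-682 the number of calls depended on the setting, the 42 genes giving 9, the 104 further genes 10 lower and 1 higher, and all genes 516 lower and 300 higher as reported. With a threshold of 0.01, 0 of the 42 genes and 0 of the 104 further genes fell and 0 of the 104 rose, with 0 of all genes lower and 0 higher. With no low-count filter, 16 of the 42 genes and 24 of the 104 further genes fell and 1 of the 104 rose, with 1107 of all genes lower and 994 higher. With DESeq2, 19 of the 42 genes and 23 of the 104 further genes fell and 2 of the 104 rose, with 1023 of all genes lower and 845 higher. With the spread of all 12 libraries, 21 of the 42 genes and 26 of the 104 further genes fell and 4 of the 104 rose, with 1307 of all genes lower and 996 higher. With smTEADi 1 and Vehicle 2 both left out, 15 of the 42 genes and 23 of the 104 further genes fell and 3 of the 104 rose, with 1057 of all genes lower and 1016 higher. The last of these was added after seeing the data. RLE and upper-quartile scaling, 10 counts in 3 libraries, limma-voom, unrounded counts and protein-coding genes only gave 9 or 10 genes that fell. Leaving out 1 library gave 0 to 12 of the 42 genes and 0 to 15 of the 104 lower, 0 to 1 of the 104 higher, and 0 to 821 lower and 0 to 801 higher of all genes. Under pTEADi the same gave 13 to 21 of the 42 and 24 to 37 of the 104 lower, 6 to 11 of the 104 higher, and 1154 to 2229 lower and 1171 to 2150 higher of all genes. A threshold of 0.01 left 1105 lower and 1033 higher of all genes and 13 of the 42. The ACTB call under pTEADi was also lost with RLE scaling, 10 counts in 3 libraries, unrounded counts and the replicate block. For the difference of the effects, 2 of all genes passed as reported, 0 at 0.01, 377 with no low-count filter (1 of the 42, TPM2, and 2 of the 104), 37 with DESeq2 (1 of the 104) and 0 to 20 without 1 library. Why these counts moved was not tested.

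The replicate numbers were not taken as pairs: deviations of same-numbered libraries from their group means correlated at -0.109, -0.0783 and 0.115 across genes in the SW-682 experiment and at 0.00228, -0.0663 and -0.0274 in the other. With a replicate block, SW-682 gave 0 of the 42 genes, 0 of the 104 and 0 of all genes in either direction, pTEADi 17 of the 42 lower, 1863 lower and 1844 higher of all genes, and the difference 0. With 3 libraries a group, depth limits FERMT2 most, whose count was 0 in 1 library.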
